A study of Mus musculus with 6 samples.

Results

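Immunoglobulin transcripts were followed in RNA-seq libraries of sorted mouse megakaryocytic-erythroid progenitors (MEP), marrow cells whose daughters become either megakaryocytes, the source of platelets, or red cells. The members were chosen by annotation and selected on their raw counts: rows of an immunoglobulin C, V, D or J biotype, pseudogenes left out, with a total of 10 or more over the 6 libraries, and the J chain gene Jchain. This gave 112 of 52459 rows, made up of 94 of 222 V rows, 11 of 13 constant rows, 5 of 14 J rows, 1 of 19 D rows and Jchain. Of the 268 immunoglobulin rows, 157 stayed under the minimum, 99 of them with at least 1 count and 58 at 0. Just inside it, Ighv14-4 and Ighv5-2 had 10 counts each, all in 1 library, and Igkv8-27 also had 10. Just outside, Ighv14-3 and Igkv14-126 had 9 counts each. Because the total chose the members, libraries rich in immunoglobulin weigh most in the choice: KO 2 and KO 3 gave 49.5% and 36.5% of the 61993 counts of all members.

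There were 3 libraries of wild-type (WT) and 3 of Tmprss6-/- (KO) mice, called WT 1 to 3 and KO 1 to 3. Tmprss6 is a liver protease, and the study used its loss as a model of iron deficiency. Each library pooled cells of 3 mice, depleted of lineage-bearing cells and then sorted for cKit and CD150 on cells without lineage markers, Sca, Fc gamma receptors, CD105 or CD41, so a repertoire below can hold the cells of up to 3 animals. The labels do not name the strain and age of the mice and which antibodies made up the lineage cocktail. Tmprss6 itself had 5, 4 and 0 counts in WT 1 to 3 and 0, 5 and 0 in KO 1 to 3, too few to check the labels.

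An antibody pairs a heavy chain with a kappa or lambda light chain. Each B cell joins a V segment to J segments (with a D segment on the heavy chain) and passes that choice on to its daughters. A clone is marked by its joined sequence, and unrelated clones can use the same V segment. The constant segment gives the class: Ighm for IgM, which is made first, and Ighg, Igha or Ighe after class switching. Plasma cells, which lodge in marrow, hold very large amounts of these transcripts. J chain is the small protein that links IgM and IgA units into polymers. Loci that have not been rearranged are also known to be transcribed in blood progenitors and early lymphoid cells, as germline transcripts.

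Total counts ran from 13402209 to 22986837 per library. The erythroid factor Gata1 was at 407 to 628 and Klf1 at 500.1 to 703 CPM (counts scaled to the library's total). Some others of the 11 genes listed for MEP varied more between libraries. Kit, a sort marker, was at 370, 852 and 1686 in WT 1 to 3 and 285, 619 and 1265 in KO 1 to 3. Gata2 ran from 220 to 837 CPM. Of the 11 genes, 0 passed the genotype test described further on. That list holds Itga2b (CD41) and Eng (CD105), whose proteins the sort selected against and whose RNA was at 86.1 to 151 and 46.4 to 122 CPM. KO 2 stood apart from the other 5 libraries: all 12 B lineage genes, all 7 macrophage genes and all 9 granulocyte genes listed were highest there. Their summed levels in KO 2 were 517, 1844 and 9321 CPM, against 30.1 to 55.7, 22.9 to 150.3 and 119.8 to 806 elsewhere. In bulk libraries, more cells of a type and more RNA per cell cannot be told apart.

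In KO 3 and WT 2, few V segments carried most of the V counts, while in KO 2 the V counts were spread. V segments that led a library with at least 100 counts (500 for lambda), and those in second place with at least 500, are shown. Each is given by the last 150 bases of its germline V exon, which run into the stretch where the V segment meets D or J. The sequences are those of the GENCODE M21 transcripts on GRCm38, not of the libraries' reads. Capitals mark the motif TANTNNTGT or TANTNNTGC, searched on the coding strand, which ends in the codon of the conserved second cysteine of the V domain. It lay within the last 150 bases of 210 of 218 V segments (96.3%).

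The leaders of KO 3 lay on the heavy locus of chromosome 12 and the kappa locus of chromosome 6: Ighv1-15 at chr12:114657353-114657502 on the minus strand, Ighv2-3 at chr12:113611187-113611336 on the minus strand, Igkv19-93 at chr6:68736297-68736446 on the minus strand and Igkv1-99 at chr6:68542273-68542422 on the plus strand.
Ighv1-15: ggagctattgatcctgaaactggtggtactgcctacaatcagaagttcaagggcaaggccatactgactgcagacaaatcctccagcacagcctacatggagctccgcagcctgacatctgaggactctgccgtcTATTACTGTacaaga
Ighv2-3: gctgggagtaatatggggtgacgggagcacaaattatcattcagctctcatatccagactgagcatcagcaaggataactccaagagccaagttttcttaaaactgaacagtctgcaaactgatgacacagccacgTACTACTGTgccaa
Igkv19-93: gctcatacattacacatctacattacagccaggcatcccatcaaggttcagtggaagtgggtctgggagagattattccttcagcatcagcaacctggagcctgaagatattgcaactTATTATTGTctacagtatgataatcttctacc
Igkv1-99: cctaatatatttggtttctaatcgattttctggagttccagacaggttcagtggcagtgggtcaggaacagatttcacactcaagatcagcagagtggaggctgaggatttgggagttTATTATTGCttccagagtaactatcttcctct

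The leaders of WT 2 were Ighv1-59 at chr12:115335082-115335231 on the minus strand and Igkv4-59 at chr6:69438218-69438367 on the minus strand.
Ighv1-59: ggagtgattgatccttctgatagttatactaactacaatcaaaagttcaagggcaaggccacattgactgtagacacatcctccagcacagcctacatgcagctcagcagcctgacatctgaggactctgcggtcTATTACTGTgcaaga
Igkv4-59: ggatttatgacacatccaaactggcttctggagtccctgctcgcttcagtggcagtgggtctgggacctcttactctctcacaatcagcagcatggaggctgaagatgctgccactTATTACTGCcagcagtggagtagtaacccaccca

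The leaders of KO 2 were Ighv7-3 at chr12:114153180-114153329 on the minus strand, Igkv6-15 at chr6:70406469-70406618 on the minus strand and, on the lambda locus, Iglv1 at chr16:19085017-19085166 on the minus strand.
Ighv7-3: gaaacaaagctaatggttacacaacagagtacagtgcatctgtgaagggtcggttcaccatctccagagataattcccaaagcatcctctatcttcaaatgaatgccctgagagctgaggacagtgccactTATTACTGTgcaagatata
Igkv6-15: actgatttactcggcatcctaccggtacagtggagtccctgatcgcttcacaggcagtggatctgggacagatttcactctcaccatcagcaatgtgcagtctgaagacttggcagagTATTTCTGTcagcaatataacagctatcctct
Iglv1: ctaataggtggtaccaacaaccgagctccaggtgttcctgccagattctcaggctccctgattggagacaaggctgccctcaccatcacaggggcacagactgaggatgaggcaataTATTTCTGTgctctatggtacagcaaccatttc

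These V exons were far apart in sequence: among the leading heavy segments identity ran from 58.0% to 85.2%, and among the kappa ones from 59.4% to 65.7%. Closer relatives exist in the genome, and reads can be split between them. The nearest V segment to Ighv1-15 was Ighv1-23 (98.4% identical over the V exon), with 0 counts in KO 3. That to Igkv19-93 was Igkv10-94 (79.2%) and that to Igkv1-99 was Igkv1-110 (85.0%), both at 0 in KO 3. In WT 2, Igkv4-70, the nearest relative of Igkv4-59, had 11 counts and Ighv1-69 (97.4% identical to Ighv1-59) had 9. In KO 2, Igkv6-13 and Igkv6-23, 95.3% and 94.6% identical to Igkv6-15, had 348 and 219 counts of their own.

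KO 2 and KO 3 held far more immunoglobulin RNA than the other 4 libraries. The immunoglobulin segments together took 137, 204 and 26.9 CPM in WT 1 to 3 and 102, 1863 and 1562 in KO 1 to 3. WT and KO overlapped, since KO 1 lay between WT 3 and WT 1. Of the 112 members, 110 had a count in KO 2, 26 in KO 3, 43 in WT 1, 50 in WT 2, 24 in WT 3 and 38 in KO 1. Only 7 had a count in all 6 libraries, while 30 had counts in KO 2 alone and so passed the minimum through that library. Over all rows, 20829, 19811 and 18443 genes had a count in WT 1 to 3. In KO 1 to 3 these were 19447, 22028 and 17395, so KO 2 had the most and KO 3 the fewest. The choice of members by total fixes part of the contrast between 110 and 26, which is given as description only.

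Ighm (ENSMUSG00000076617, chr12:113418558-113422730), the constant segment of IgM, was the most frequently counted heavy constant segment in every library. It had 2725, 812 and 299 counts in WT 1 to 3 and 1576, 9654 and 7653 in KO 1 to 3, or 119, 58.0, 21.9, 87.0, 642 and 571 CPM. The KO libraries 2 and 3 were above all WT libraries, and KO 1 was not. Ighm took 98.5% of heavy constant counts in WT 1 (95% Wilson interval 98.0 to 98.9, n = 2766 counts), 97.3% in KO 1 (96.4 to 98.0, n = 1619) and 91.7% in WT 3 (88.2 to 94.2, n = 326). It took less in KO 3 (82.4%, 81.6 to 83.2, n = 9286), KO 2 (64.2%, 63.4 to 65.0, n = 15034) and WT 2 (57.9%, 55.3 to 60.4, n = 1403). The intervals cover counting error only, since reads of amplified cDNA without molecular identifiers are not independent molecules. Per exon length, Ighm still led in every library, with 65.9% in WT 2 and 98.6% in WT 1 as the extremes.

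Class-switched segments were found mainly in WT 2, KO 2 and KO 3. Igha, the IgA constant segment (chr12:113254830-113260236), had 580 counts in WT 2, 1643 in KO 2 and 1622 in KO 3, against 5, 7 and 6 in WT 1, WT 3 and KO 1. It made up 41.3% of heavy constant counts in WT 2 (38.8 to 43.9), 17.5% in KO 3 (16.7 to 18.3) and 10.9% in KO 2 (10.4 to 11.4). Both genotypes therefore had a library rich in Igha, and both had libraries with almost none.

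The IgG segments separated KO 2 from KO 3. Ighg3, Ighg2b, Ighg2c and Ighg1 had 1801, 1253, 398 and 36 counts in KO 2, and 0, 3, 1 and 0 in KO 3. Ighg3 was at 0 in the other 5 libraries, where a count of 0 allows up to 3 counts. The highest count of any IgG segment outside KO 2 was 13, for Ighg2b in WT 3. Ighd, the IgD segment that resting B cells make together with Ighm, had 36, 2 and 7 counts in WT 1 to 3 and 18, 249 and 7 in KO 1 to 3. Ighe, the IgE segment, did not reach the minimum total, with 3 counts in WT 1 and 2 in KO 1.

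**Figure D1:**
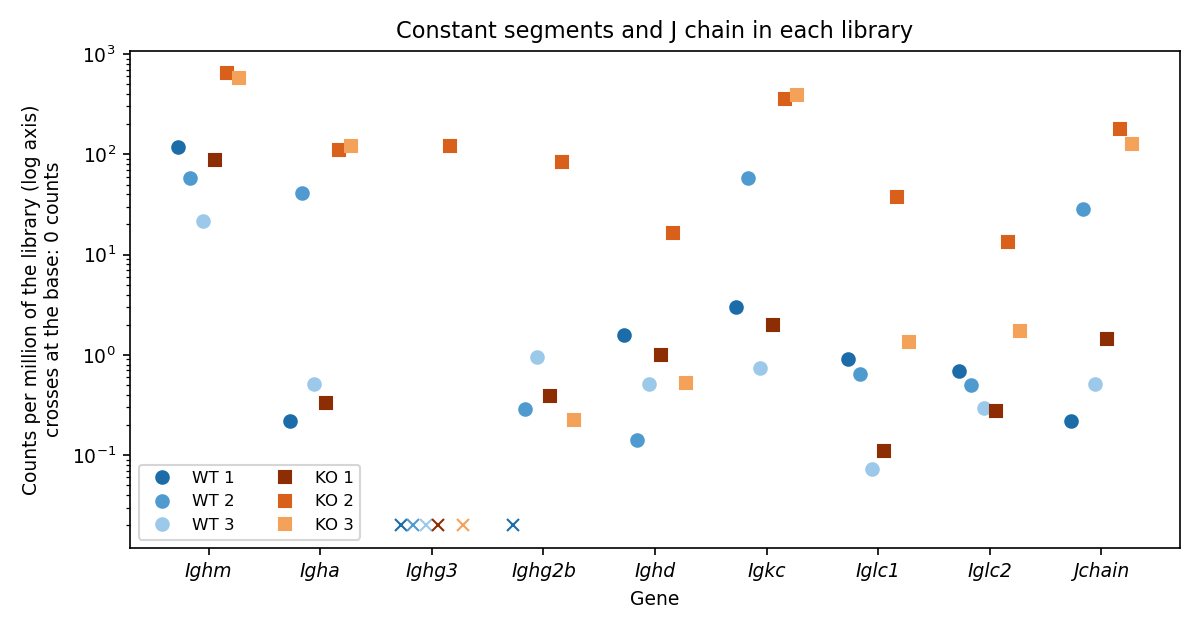
CPM (log axis) of constant segments and Jchain in each of the 6 libraries, circles for WT and squares for KO, with crosses for 0 counts. KO 2 and KO 3 lie above the others for Ighm, Igkc, Igha and Jchain, with WT 2 next for Igkc, Igha and Jchain, while Ighg3 is counted in KO 2 alone.

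Light chain transcripts were scarce where Ighm stood nearly alone. Igkc (ENSMUSG00000076609, chr6:70726435-70726966), the kappa constant segment, had 69, 817 and 10 counts in WT 1 to 3 and 36, 5357 and 5238 in KO 1 to 3. There were 0.0390, 0.0460 and 0.0290 light constant counts for each heavy constant count in WT 1, WT 3 and KO 1. In WT 2, KO 2 and KO 3 the same ratio of counts, which is not scaled by length, was 0.596, 0.416 and 0.569. The libraries thus fell into those with both chains and those with mainly Ighm, and each kind held both genotypes.

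Kappa outweighed lambda in the light constant counts of each library. Igkc made up 99.2% of them in KO 3 (98.9 to 99.4, n = 5282), 97.7% in WT 2 (96.5 to 98.5, n = 836) and 85.6% in KO 2 (84.7 to 86.5, n = 6256). In WT 1, WT 3 and KO 1 the share was 63.9% (54.5 to 72.3, n = 108), 66.7% (41.7 to 84.8, n = 15) and 76.6% (62.8 to 86.4, n = 47). The lambda segments Iglc1, Iglc2 and Iglc3 had 559, 203 and 137 counts in KO 2 and 18, 23 and 3 in KO 3. These segments resemble each other, and Igkc overlaps a long non-coding row, Gm30211, that had 87 counts in KO 2 and at most 9 elsewhere.

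**Figure D2:**
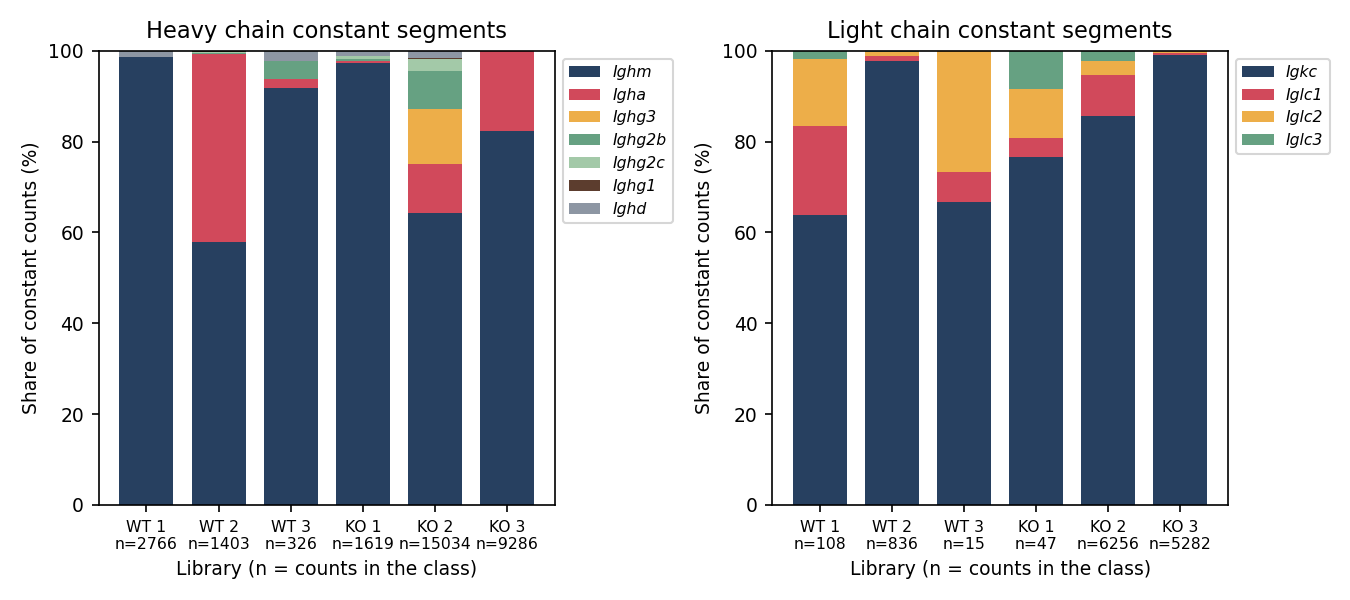
Stacked shares (percent of counts) of the heavy (left) and light (right) constant segments in each library, with the number of counts in the class under each bar. Igha takes 41.3% of heavy constant counts in WT 2 and 17.5% in KO 3, IgG segments are visible mainly in KO 2, and Igkc takes 99.2% of light constant counts in KO 3.

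Jchain (ENSMUSG00000067149, chr5:88519809-88527891) followed the libraries that held Igha and Igkc. It had 5, 400 and 7 counts in WT 1 to 3 and 26, 2699 and 1686 in KO 1 to 3, or 0.218, 28.6, 0.512, 1.44, 179.6 and 125.8 CPM. There were 28.5 Jchain counts for each 100 heavy constant counts in WT 2, 18.0 in KO 2 and 18.2 in KO 3. In WT 1, WT 3 and KO 1 there were 0.181, 2.15 and 1.61. Jchain lay lowest, relative to the heavy chain, in WT 1, the library with the third highest Ighm level.

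The heavy V segments of KO 3 came down to a pair. Ighv1-15 had 1392 counts and Ighv2-3 had 539 of 1944 heavy V counts there, 71.6% (69.6 to 73.6) and 27.7% (25.8 to 29.8), and together 99.3%. Ighv1-15 had 1, 2 and 0 counts in WT 1 to 3, 1 in KO 1 and 139 in KO 2. Ighv2-3 had 3 counts in WT 2 and 0 in the other 4 libraries, KO 2 among them. The effective number of heavy V segments, the inverse Simpson index corrected for the number of counts, was 1.70 in KO 3.

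WT 2 had 1 leading heavy V segment over a mixed remainder. Ighv1-59 gave 138 of 250 heavy V counts (55.2%, 49.0 to 61.2), followed by Ighv1-23 and Ighv1-77 with 21 each. Ighv1-59 was also counted in KO 2, with 55, and was at 0 in the other 4 libraries. The effective number was 3.07.

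KO 2 had counts spread over many segments, with an effective number of heavy V segments of 10.1. It was 9.30 in WT 1 and 6.06 in KO 1, from 194 and 107 counts, and 11.1 in WT 3 from 13 counts. In KO 2, 51 of 52 heavy V members had 3 or more counts, though its counts weighed most in choosing them. Its first segment, Ighv7-3, gave 633 of 2285 counts (27.7%, 25.9 to 29.6), and Ighv1-64, Ighv1-15, Ighv1-22 and Ighv1-58 followed with 179, 139, 115 and 105. Ighv7-3 had 5 counts in WT 1 and 0 in the other libraries. By CPM, 83 of the 94 V members of all loci were highest in KO 2, 5 in WT 2, 5 in KO 3 and 1 in WT 1.

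**Figure D3:**
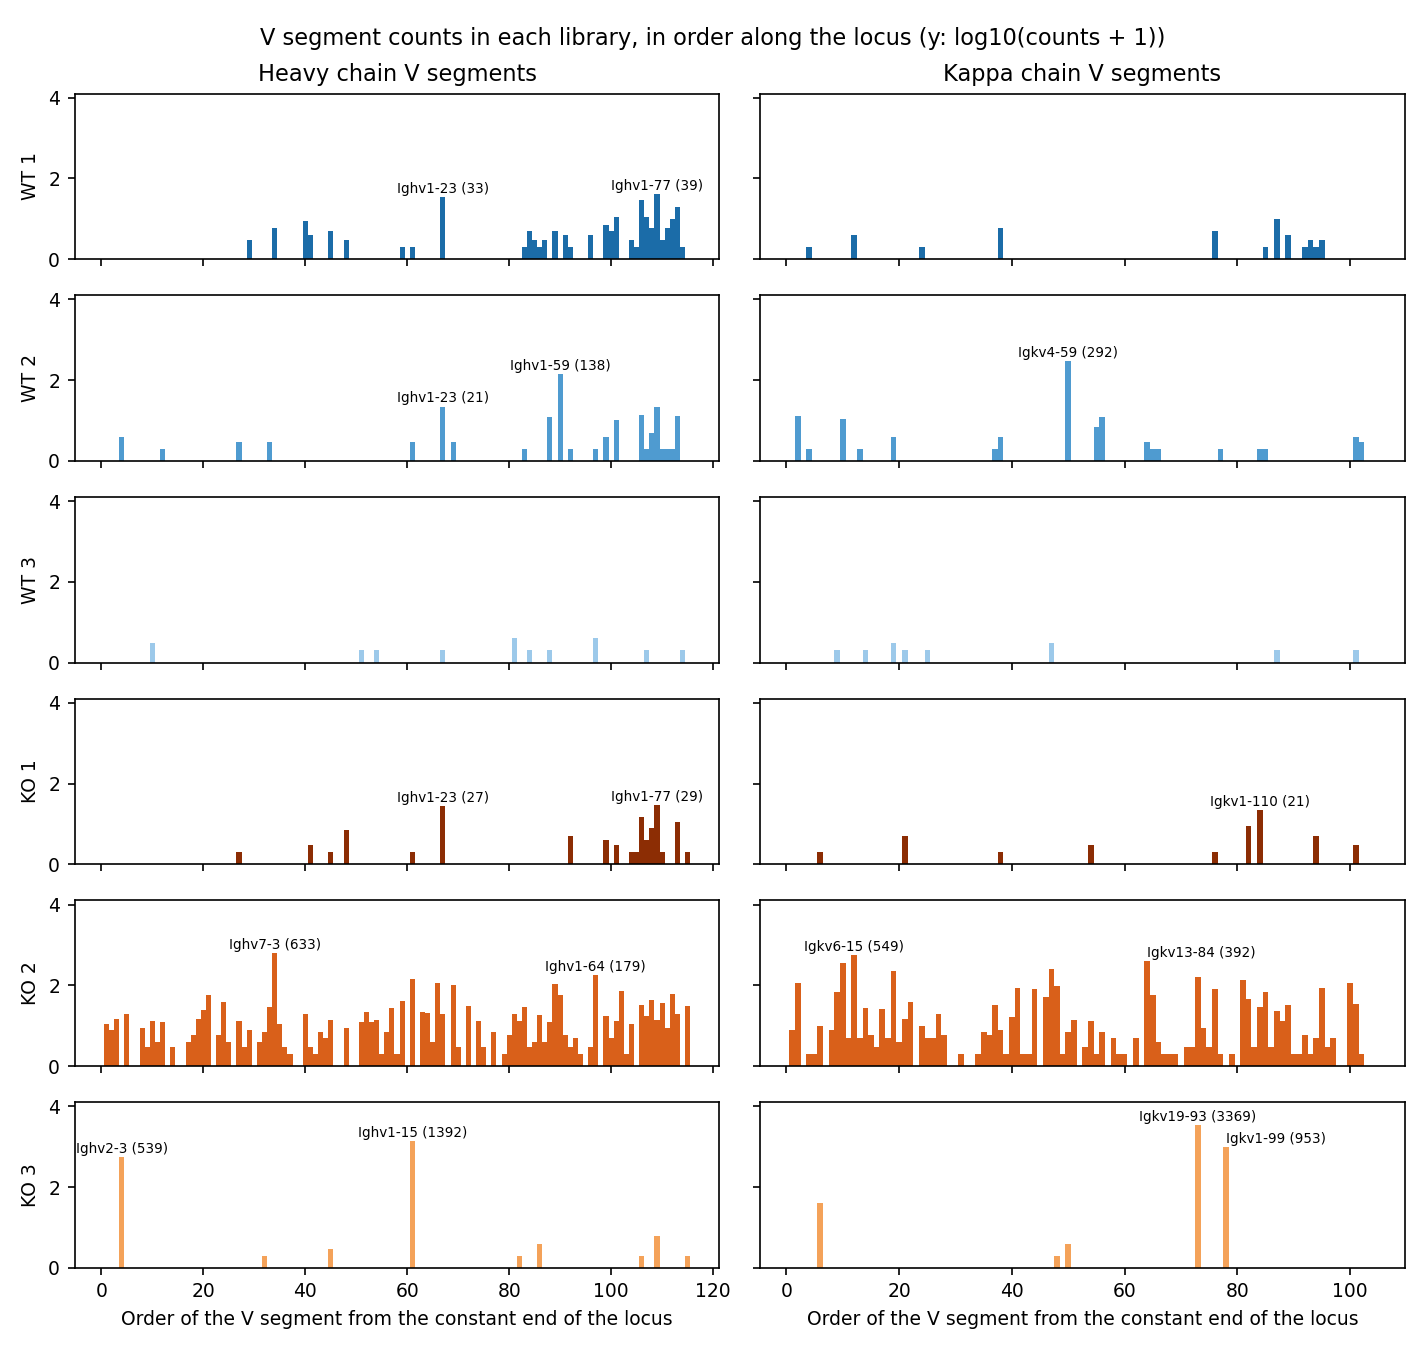
Counts (log10 of counts plus 1) of each annotated heavy (left) and kappa (right) V segment in each library, in order along the locus from the constant end, with the leading segments and their counts named. KO 3 shows Ighv1-15 and Ighv2-3 beside Igkv19-93 and Igkv1-99, WT 2 shows Ighv1-59 beside Igkv4-59, and KO 2 is filled along both loci.

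WT 1 and KO 1 shared their leading heavy V segments with each other. Ighv1-77 had 39 counts in WT 1 and 29 in KO 1, Ighv1-23 had 33 and 27, Ighv1-74 had 28 and 14, and Ighv1-82 had 18 and 10. These 4 segments gave 60.8% of heavy V counts in WT 1 and 74.8% in KO 1, but 26.8% in WT 2, 3.59% in KO 2 and 0.309% in KO 3. Their summed counts were 118, 67 and 1 in WT 1 to 3 and 80, 82 and 6 in KO 1 to 3.

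Unlike the leaders of KO 3 and WT 2, those 4 segments were thus seen at similar counts in 4 libraries of both genotypes. They lie away from the constant genes, at places 109, 67, 106 and 113 of the 115 heavy V rows counted from the constant end. The 58 rows on the far side of the locus gave 90.2% of heavy V counts in WT 1 (85.2 to 93.6) and 92.5% in KO 1 (85.9 to 96.2). The share was 96.8% in WT 2 (93.8 to 98.4), 72.2% in KO 3 (70.1 to 74.1), 69.2% in WT 3 (42.4 to 87.3, 13 counts) and 56.2% in KO 2 (54.1 to 58.2), so a high share on the far side was not particular to WT 1 and KO 1. Heavy V counts were also few beside the constant ones in WT 1, KO 1 and WT 3. They were at 7.01, 6.61 and 3.99 for each 100 heavy constant counts. The figure was 17.8 in WT 2, 15.2 in KO 2 and 20.9 in KO 3, counts that are not scaled by length.

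The kappa V segments of KO 3 also came down to a pair. Igkv19-93 had 3369 and Igkv1-99 had 953 of 4365 kappa V counts, 77.2% (75.9 to 78.4) and 21.8% (20.6 to 23.1), and together 99.0%. The next segment, Igkv3-7, had 39. Igkv19-93 had 162 counts in KO 2 and 0 in the WT libraries and KO 1, while Igkv1-99 was at 0 in all 5 other libraries. KO 2 held Ighv1-15 and Igkv19-93, the larger heavy and kappa segments of KO 3, without Ighv2-3 and Igkv1-99, the smaller ones. Since 92 of 94 V members (97.9%) had 3 or more counts in KO 2, this overlap is not read as a link to KO 3. Ighv2-3 and Igkv1-99 passed the minimum total only through KO 3.

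The larger and smaller segments of KO 3 stood in similar but not equal proportions. The heavy V split was 71.6% to 27.7%, the kappa V split 77.2% to 21.8%, and the split of Ighm to Igha 82.4% to 17.5% in counts or 86.9% to 13.0% per exon length. Which heavy segment was joined to which light or constant segment was not tested, as the table counts each segment separately.

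In WT 2, Igkv4-59 gave 292 of 340 kappa V counts (85.9%, 81.8 to 89.2), and its effective number of kappa V segments was 1.35, against 1.55 in KO 3. Igkv4-59 had 6 counts in KO 2, 3 in KO 3 and 0 in the other 3 libraries. In KO 2 the kappa V counts were spread, with Igkv6-15, Igkv13-84, Igkv6-13, Igkv4-57 and Igkv6-23 at 549, 392, 348, 258 and 219 of 3360 and an effective number of 13.8. WT 1 and KO 1 had 6.41 and 3.17. WT 1, WT 3 and KO 1 had only 28, 9 and 40 kappa V counts. Of these, Igkv1-117 led WT 1 with 9, Igkv4-57 and Igkv6-23 had 2 each in WT 3, and Igkv1-110 led KO 1 with 21. At this depth no order of kappa segments can be read in WT 3.

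**Figure D4:**
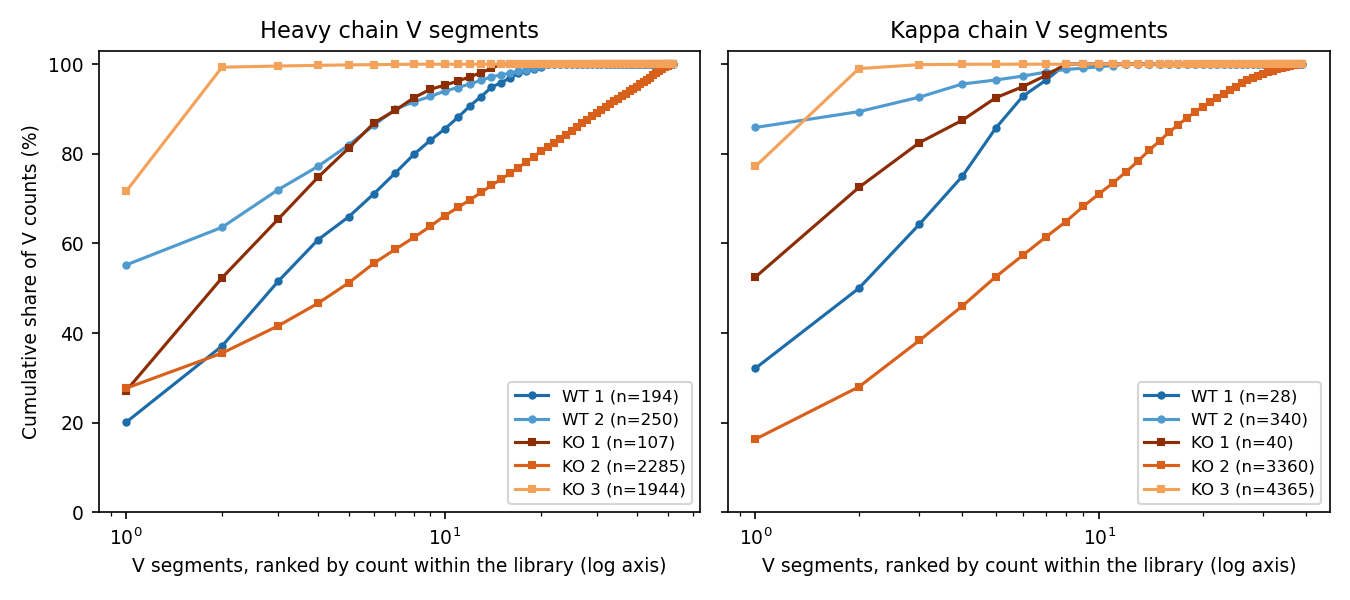
Cumulative share of V counts (percent) against the rank of the segment within a library (log axis) for heavy (left) and kappa (right) V members, in libraries with at least 25 such counts. In KO 3 the first pair of segments reaches 99.3% and 99.0%, while in KO 2 it reaches 35.5% and 28.0%.

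Lambda V counts followed the lambda constant ones. Iglv1 had 767, Iglv3 77 and Iglv2 59 counts in KO 2. Iglv1 had 49 counts in KO 3, 8 in WT 1, 6 in WT 2 and 0 in WT 3 and KO 1. Iglv3 had 9 in WT 1 and 4 in WT 3, and Iglv2 had 3 in KO 1. Iglv2 is 97.0% identical to Iglv1 over the V exon, so reads can pass between these.

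J and D segments, which are short, were rarely counted. Ighj1 led the heavy J segments, with 35, 10 and 0 counts in WT 1 to 3 and 30, 78 and 4 in KO 1 to 3. Ighd4-1, the D segment nearest to the J segments, had 5, 3, 0, 4, 8 and 1 counts in the same order. Heavy J counts were lower in KO 3 (4) than in WT 1 (38) and KO 1 (34), although KO 3 had 9286 heavy constant counts and those libraries 2766 and 1619. Ighj1 took 35 of 38 heavy J counts in WT 1 and 30 of 34 in KO 1, but 78 of 148 in KO 2, where Ighj4, Ighj2 and Ighj3 had 29, 24 and 17. The kappa segment Igkj4 had 11 counts, all in KO 2.

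With 3 counts taken as the minimum, 41 of 94 V members were seen in at least 2 libraries. By library, 92 V members were seen in KO 2, 21 in WT 1, 18 in WT 2, 12 in KO 1, 9 in KO 3 and 3 in WT 3. KO 2 held 97.9% of the V members, which were chosen on totals that it dominates, so overlaps with it are not read. WT 1 and WT 2 shared 9 (42.9% of the former and 50% of the latter), and WT 1 and KO 1 shared 7 (33.3% and 58.3%). WT 2 and KO 1 shared 6 (33.3% and 50%), WT 2 and KO 3 shared 4, and KO 1 and KO 3 shared 1.

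The genotype comparison asked whether loss of Tmprss6 shifts these transcripts across the 3 libraries a group. The filter on low counts (filterByExpr of edgeR) kept 12 of the 112 members: 6 constant segments, 4 heavy V segments, Ighj1 and Jchain. With edgeR's quasi-likelihood test and Benjamini-Hochberg adjustment over 13453 genes, 0 of the 12 were called, and the share called over all genes was 0%. At an unadjusted p under 0.05 there were 3 members (Ighm, Iglc2 and Iglc1) and 234 genes in all, and limma voom also called 0 of the 12, with 1 at that level. The median log2 fold change of the 12 was 2.54, beside -0.0048 over all genes tested, and 10 of 12 were above 0. Without KO 2 the median was 0.33 over 11 members tested, with 7 above 0, and without WT 2 it was 4.48 over 17, with 17 above 0. In the fit of all 6 libraries, members passed the filter on counts in at least 3 libraries. Fits without a library need fewer: without WT 2, Igkv19-93 passed on KO 2 and KO 3 alone (162 and 3369 counts). The medians and signs therefore describe the members that passed and support nothing.

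Ighm had the smallest p of the members. The mean level was 66.1 ± 48.8 CPM over the WT libraries and 433 ± 302 CPM over the KO libraries (SD, n = 3 each). Its fitted log2 ratio of KO to WT was 2.63 with an SE of 0.83 (edgeR adjusted p = 1.00). Iglc2 and Iglc1, lambda constant segments, had log2 fold changes of 3.24 and 4.39, and Ighd and Igkc of 2.85 and 3.58, each with an edgeR adjusted p of 1.00. Iglc1 was at 37.2 CPM in KO 2 against 0.0732 to 1.34 elsewhere, and without KO 2 the log2 fold changes of Iglc1 and Ighd were 0.33 and 0.05, while Iglc2 no longer passed the filter. Jchain was at 9.77 ± 16.3 in WT and 102 ± 91.4 in KO, and the fitted log2 ratio was 3.38 with an SE of 1.89 (edgeR adjusted p = 1.00). By replicate number, the KO library was the higher in all 3 pairs, and the fit with number as a block gave a log2 ratio of 4.27 with an SE of 1.09 (edgeR adjusted p = 0.995). Without WT 2 the unblocked Jchain value was 8.10 and that of Igkc 6.92 (edgeR adjusted p = 1.00 for both).

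For Ighj1 and Igha the log2 fold changes were 1.56 and 2.45 (edgeR adjusted p = 1.00 for both). Igha was at 7.70 without WT 2. Ighj1 was at 0.44 without KO 2, 1.00 without WT 3 and 2.72 without WT 1. The 4 heavy V segments that passed the filter were the leaders shared by WT 1 and KO 1. The filter used the same counts and keeps segments counted in several libraries, so this match supports nothing. Ighv1-74, Ighv1-77, Ighv1-82 and Ighv1-23 had log2 fold changes of 0.37, -0.15, 0.11 and -0.10, with standard errors of 1.14 to 1.31, so changes of either sign lie within these errors.

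Members were called in 2 other fits. DESeq2, run on all 25640 rows with a count, called 1 member, Igkv19-93, as higher in KO (DESeq2 adjusted p = 3.86e-07), where 0.0234% of all rows were called higher. Its counts were 162 in KO 2 and 3369 in KO 3, with 0 in the other 4 libraries, KO 1 among them. It did not pass the filter of the edgeR fit, and edgeR without that filter gave it an adjusted p of 1.00. DESeq2 gave many other members no adjusted p, Ighg3 and Igkv1-99 among them, so these could not be called. A fit of libraries 1 and 3 of each genotype, blocked by number, called 1 of 10 members tested, Jchain, at a log2 ratio of 6.92 with an SE of 0.60 (edgeR adjusted p = 2.08e-05). In that fit 0.258% of 13572 genes were called higher and 0.604% lower, and 0 members were called lower. Pair 1 had 5 and 26 Jchain counts in WT and KO (0.218 and 1.44 CPM), and pair 3 had 7 and 1686 (0.512 and 125.8 CPM). The rise was far larger in pair 3, so the SE and adjusted p of that fit are not read as the spread between pairs.

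Other genes of the B lineage were high in KO 2, while in KO 3 their sum lay within the WT range. The 12 B lineage genes summed to 55.7, 46.4 and 30.1 CPM in WT 1 to 3 and to 52.7, 517 and 34.8 in KO 1 to 3. Cd79b was the largest term of each sum, at 29.0, 29.9 and 22.6 in WT and 31.0, 129 and 18.2 in KO. Like Cd79b, Cd72 was lower in KO 3 than in every WT library (1.72 against 2.56 to 7.83 CPM). Cd79a, a signalling chain of the B cell receptor, had 105, 47 and 7 counts in WT and 43, 1166 and 29 in KO. Pax5 and Fcrla were at 0 in KO 3, but Pax5 was also at 0 in WT 1, WT 3 and KO 1. Of the 6 mature B genes, 5 were at 0 in KO 3, and of these Ms4a1 (CD20), Fcer2a and Cd40 were also at 0 in WT 3. Bank1 and Blnk, adaptors of B cell receptor signalling, were at 4.40 and 4.85 CPM in KO 3, against 0.439 to 1.91 and 1.39 to 4.18 in WT. Immunoglobulin was at 1863 and 1562 CPM in KO 2 and KO 3.

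Genes of plasma cells gave a mixed picture. The 17 on the list summed to 684 to 921 CPM in WT and to 956, 1047 and 782 in KO 1 to 3, with 12 of 17 highest in KO 2. Several are also expressed widely in these progenitors, such as the secretory factor Xbp1 at 90.4 to 104 CPM in WT and 121, 178 and 142 in KO. Mzb1, a chaperone of IgM assembly, had 20, 11 and 2 counts in WT and 10, 248 and 20 in KO. Irf4, a regulator of plasma cell identity, had 10, 7 and 0 and 4, 125 and 18. Tnfrsf17, the plasma cell receptor BCMA, had 2 counts in KO 2 and 0 in every other library. Prdm1 had 31, 18 and 56 counts in WT and 5, 65 and 37 in KO.

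**Figure D5:**
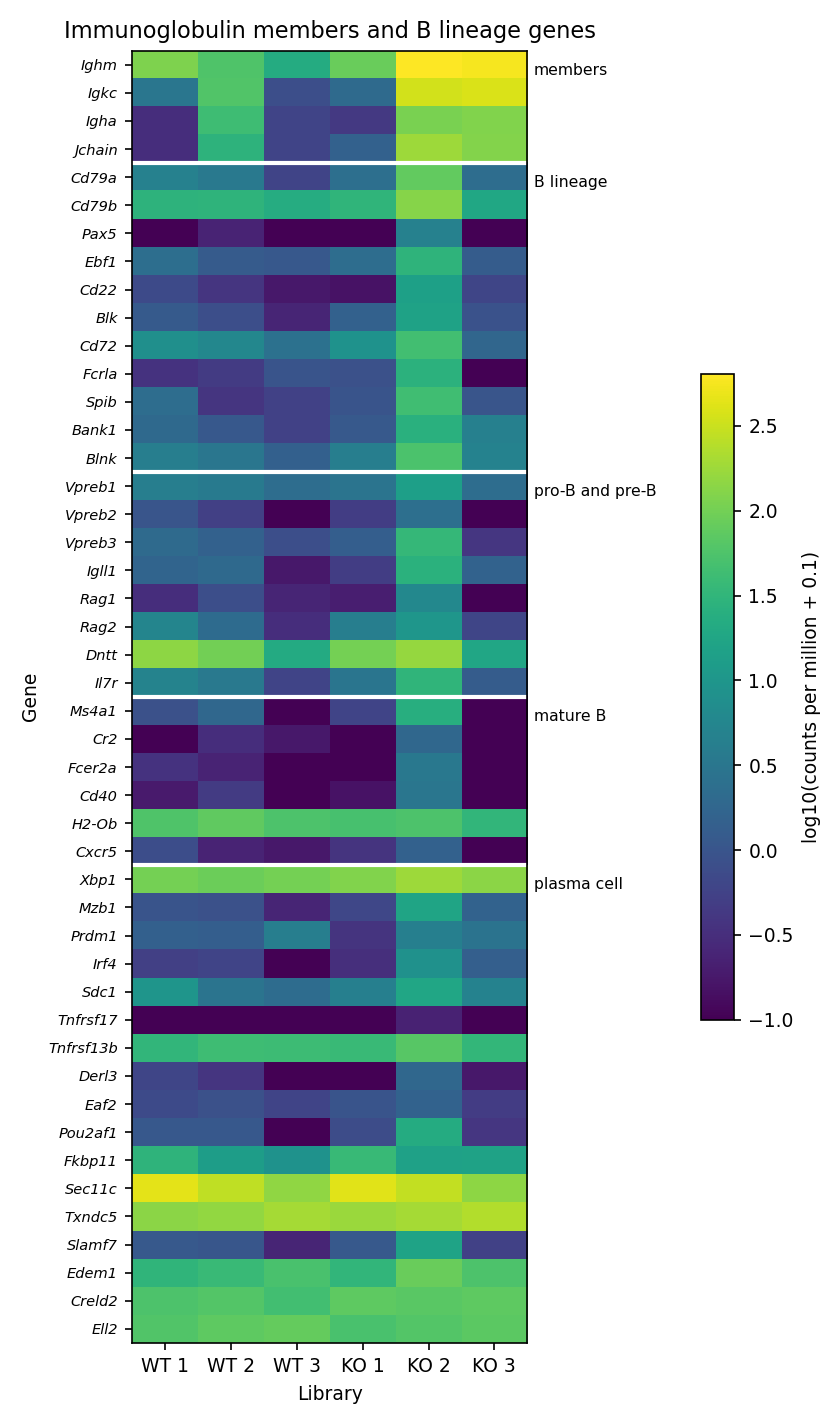
Levels (log10 of CPM plus 0.1) of 4 members and of genes of the B lineage (1 not drawn), pro-B and pre-B, mature B and plasma cell lists in each library. KO 2 is bright over the B lineage block, whereas KO 3 is bright for Ighm, Igkc, Igha and Jchain with Pax5, Fcrla and Ms4a1 at 0.

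All 8 pro-B and pre-B genes were highest in KO 2, and they were lowest in sum in KO 3 and WT 3. Dntt, the polymerase that adds bases at the V(D)J joins, was at 143, 100.1 and 21.5 CPM in WT 1 to 3 and 101, 159 and 17.8 in KO 1 to 3. WT 3 and KO 3 were low, and these were also the libraries where the 4 shared Ighv1 segments had 1 and 6 counts. Rag1, which cuts the segments, had 89 counts in KO 2 and at most 10 elsewhere. Of the 8 pro-B and pre-B genes, 6 passed the filter and 0 were called, with summed levels of 25.4 to 162 in WT and 23.4 to 283 in KO. Pigr and Fcamr, receptors that carry or bind polymeric immunoglobulin, had 0 counts in all 6 libraries.

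The lists held 12 B lineage, 8 pro-B and pre-B, 6 mature B, 17 plasma cell and 12 recombination, switching and transport genes. They also held 14 T and NK cell, 7 plasmacytoid dendritic cell, 7 macrophage and 9 granulocyte genes. In this order, 9, 6, 2, 14, 6, 13, 5, 7 and 9 passed the filter and were tested. Some genes, such as Rag1 and Dntt, recur between lists. No listed gene passed edgeR's threshold in the 6 libraries, where the share called over all genes was 0%. KO 2 was also highest for the T and NK cell list (268 against 48.7 to 93.8) and the plasmacytoid dendritic list (424 against 124.7 to 152.8). The recombination, switching and transport list summed to 179, 134 and 52.0 in WT 1 to 3 and to 131, 251 and 52.8 in KO 1 to 3, and the 6 mature B genes to 58.4, 78.3 and 55.8 and to 50.5, 88.6 and 32.5. KO 3 lay within the range of the other libraries for granulocyte genes (227 against 119.8 to 806 CPM, KO 2 left aside), and its macrophage genes were at 150.3 against 22.9 to 125.6. The part of such cells in the immunoglobulin levels was not tested.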

How the data were processed

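The authors deposited raw read counts per Ensembl gene for 6 libraries, unscaled. Per the labels' protocols, libraries came from a SMART-Seq v4 amplification and the Nextera XT kit, without strand marking. Per the submitters' processing notes, FastQC 0.11.5, STAR 2.5.3a and edgeR were used, and GRCm38.p3 and GRCh38.p3 are named as builds. How reads were counted, and reads with several hits treated, is not given in the sources used here. How rearranged or mutated V reads aligned was not tested, and counts of similar segments are uncertain. All 112 members had the same place in GENCODE M21, on GRCm38, which gave exon lengths and sequences.

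Groups came from the labels, and p-values measure the spread between pools, which are not tied to litters or days. The fit of pairs 1 and 3 alone is an exception, since its SE for Jchain does not reflect how far the pairs differ. Levels are CPM of a library's total, 3 counts being the floor. Shares carry 95% Wilson intervals. Genotypes were compared with edgeR 4.0.16 across all genes (filterByExpr, TMM, quasi-likelihood test, two-sided, Benjamini-Hochberg adjustment, threshold 0.05), in R 4.3.3, with DESeq2 1.42.0 and limma 3.58.1 voom as alternatives. V exon identity is 1 minus the edit distance over the longer exon (edlib 1.3.9.post1).

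The labels give the replicate numbers no meaning. Between WT and KO libraries of the same number, deviations from the group means correlated at 0.53, 0.16 and 0.63 across genes for numbers 1, 2 and 3. Libraries of unlike number were not compared, so a pairing by number was not tested. Named members were all constant segments, Jchain, the 3 leading V segments per locus and the leading D and J segments of each library, the 10 of smallest p and those called by DESeq2. Lower-ranked segments and other list genes were named after their values were seen. The members, lists and tests were chosen with earlier results of these data known. No promoter or protein sequence is shown, and some list genes are not reported here.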

Additional observations from a re-analysis of the deposited data

Results flagged for a closer look

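Immunoglobulin pseudogenes, which were left out of the members and the genotype comparison, gave 47 counts in KO 2 (3.13 CPM), above the highest WT library (WT 1, with 26 counts or 1.13 CPM). Beside the counts of the immunoglobulin segments, 28005 in KO 2 and 3156 in WT 1, the pseudogene counts were the smaller part in KO 2. KO 3, with nearly as much immunoglobulin as KO 2, had 0 pseudogene counts.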

How the results depend on the processing

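The replicate block over all 6 libraries called 0 members and 0 genes and gave Jchain a log2 fold change of 4.27 (edgeR adjusted p = 0.995), so it changed no call. The replicate block on pairs 1 and 3 alone called 1 member and 117 genes, with Jchain at 6.92 (edgeR adjusted p = 2.08e-05), and DESeq2 called 1 member and 9 genes. Other scalings, immunoglobulin counts left out of the library size, no filter and limma voom called 0 members and 0 genes. Leaving out each library gave 0 to 0 calls of members and of all genes, and log2 fold changes of Jchain from 2.74 to 8.10. Jchain stayed above 0 in every fit run, with adjusted p from 2.08e-05 to 1.00.

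Without the leading segment of each library, immunoglobulin fell from 137, 204 and 26.9 to 18.7, 146 and 4.98 CPM in WT 1 to 3 and from 102, 1863 and 1562 to 15.4, 1221 and 991 in KO 1 to 3. Dividing counts by exon length, an alternative added after the data were seen, moved the Ighm share to 65.9% in WT 2, 69.5% in KO 2 and 86.9% in KO 3, and the Igkc share to 84.4% in KO 2. Dividing by the genomic span moved Ighm to 99.3% in WT 1, 64.0% in WT 2, 68.6% in KO 2 and 85.9% in KO 3, Igkc to 99.4% in KO 3 and Igkv19-93 to 84.3% in KO 3. The leading segment of each class and library was the same by counts, exon length and span, except among the heavy V segments of KO 1, where Ighv1-77 led by counts (27.1% against 25.2%) and Ighv1-23 by exon length (26.7% against 24.8%) and span (26.5% against 25.3%). Depth limits WT 3 most, with 13 heavy and 9 kappa V counts.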

Other observations

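The constant segments of the T cell receptor, the other family of rearranging receptors, ordered the libraries differently from immunoglobulin. They summed to 32.3, 41.3 and 9.07 CPM in WT 1 to 3 and to 76.2, 69.5 and 18.1 in KO 1 to 3. KO 1, with 102 CPM of immunoglobulin, was highest, and KO 3, with 1562, lay below WT 1 and WT 2. The members of this family include close copies, and no test of this order was made.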
